A study of Mus musculus with 14 samples.

Results

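Genes induced by type I interferon, 42 in number, were followed gene by gene in RNA-seq of mouse spinal cord with and without spinal cord injury (SCI). The members were the rows of the deposited expression table whose gene name stood on a list of 42 interferon-stimulated genes, of 56748 genes in the table, and all 42 names were found. Bulk RNA came from cord tissue, which held the lesion in injured mice and the corresponding segments in uninjured mice. The 4 groups were AstroCSF1KO SCI (n = 4) and Control SCI (n = 4), both collected 7 days after injury, and AstroCSF1KO uninjured (n = 3) and Control uninjured (n = 3). AstroCSF1KO is the label for deletion of Csf1, a growth factor gene of microglia and macrophages, in astrocytes. The labels used here do not give the Cre driver, the alleles of the controls, or the strain, sex and age of the mice. They do not state either that each library came from a separate mouse, so p-values measure the spread between libraries.

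Type I interferons are IFN-β and the IFN-α family, secreted proteins that bind the receptor IFNAR1/IFNAR2 on almost every cell type. The receptor's kinases switch on the transcription factor complex ISGF3, which binds the interferon-stimulated response element (ISRE) near the start of its target genes. The induced proteins block viral entry, translation and budding, sense foreign nucleic acid and regulate the response itself. In the central nervous system, microglia and astrocytes both make and answer interferon.

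The ISRE letters were looked for in the RefSeq promoters (GRCm38.p6, 250 bases before to 50 bases after each start), on both strands, because these short elements are what the members are known to share. A promoter was matched for 31 of the 42 members. The core, which is GAAA, any 2 bases and GAAA, stood in 18 of the 31 (58.1%), against 3.99% of 27025 genes with a promoter in the table. The core followed by CT, a subset of the core matches, stood in 11 of 31 (35.5%), against 0.303% of all genes. Some elements are printed below in the gene's direction, 5′ to 3′, with the matched letters in capitals; a match on the opposite strand reads TTTC, any 2 bases and TTTC.
Isg15: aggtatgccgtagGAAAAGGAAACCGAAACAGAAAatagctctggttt
Bst2: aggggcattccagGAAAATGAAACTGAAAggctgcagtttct
Ifit1: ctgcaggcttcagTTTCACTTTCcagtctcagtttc
Ifit1: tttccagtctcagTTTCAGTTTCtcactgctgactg
Ifit3: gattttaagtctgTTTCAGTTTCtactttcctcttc
Rsad2: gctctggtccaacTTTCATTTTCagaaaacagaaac
Ifi207: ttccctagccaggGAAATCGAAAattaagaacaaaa
Oas1a: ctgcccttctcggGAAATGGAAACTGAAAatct
Oas1g: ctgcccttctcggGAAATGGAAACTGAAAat
Slfn8: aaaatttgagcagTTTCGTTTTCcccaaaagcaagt
Slfn9: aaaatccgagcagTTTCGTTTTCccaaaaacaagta
On GRCm38.p6 these windows lie, in the order printed, at chr4:156200862-156200909 (minus strand), chr8:71537574-71537615 (minus), chr19:34640772-34640807 (plus), chr19:34640791-34640826 (plus), chr19:34583394-34583429 (plus), chr12:26456550-26456585 (minus), chr1:173741828-173741863 (minus), chr5:120907526-120907558 (minus), chr5:120887614-120887644 (minus), chr11:83020836-83020871 (minus) and chr11:82991853-82991888 (minus). The match in Isg15 spans the bases 78 to 57 before the start and that in Bst2 the bases 130 to 115 before it. Capitals mark only the match of their own line. The Ifit1 windows overlap, so each also holds letters of the other's match in lower case. The capitals of Oas1a and Oas1g are the same letters, as are those of Slfn8 and Slfn9. The Ifit3b promoter held the printed Ifit3 window letter for letter at chr19:34607790-34607825.

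Many members lie beside relatives in the genome. On mm39, the build named in the submitters' processing notes, the deposited coordinates put Ifit2, Ifit3, Ifit3b and Ifit1 within chr19:34528094-34627409, Slfn5, Slfn9, Slfn8 and Slfn2 within chr11:82842175-82961504, and Ifi207, Ifi204 and Ifi211 within chr1:173550993-173740612. Some of these relatives share sequence. Of all 100-base stretches in the transcripts of Ifit3, 31.65% also occur in Ifit3b, and of those in Oas1a, 40.87% also occur in Oas1g. For Ifi211, 56.88% occur in other genes. The values of Ifit3, Ifit3b, Oas1a, Oas1g and Ifi211 are uncertain to that extent, since reads from shared stretches could be assigned to either gene, and for Ifi204 and Herc6 the shares are 10.69% and 10.31%. Isg15, Bst2, Ifitm3, Rsad2, Cmpk2, Oasl2 and Ifi27l2a share no such stretch. Dtx3l and Parp9 overlap at their ends, and the libraries were not strand-specific, so reads from the overlap cannot be told apart.

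Whole read numbers could be recovered from the deposited FPKM values (fragments scaled by gene length and library size), and the libraries held 13263610 to 21969581 reads. There were 3 control libraries that stood apart from the other 11. In Control SCI 1, Control SCI 4 and Control uninjured 1, single-read genes were 1.45% to 2.06% of those detected, against 8.44% to 11.6% in the others, and mitochondrial genes took 6.73% to 13.9% of reads, against 3.38% to 5.78%. Ribosomal RNA took 2.89% to 3.99% of reads in AstroCSF1KO SCI 2, 3 and 4 and AstroCSF1KO uninjured 3, against 0.290% to 0.764% in the rest. Csf1 itself was at 19.9, 16.4, 18.6 and 19.2 FPKM in AstroCSF1KO SCI and at 7.95, 17.6, 18.3 and 10.4 FPKM in Control SCI. It was at 8.23, 10.3 and 11.02 FPKM in AstroCSF1KO uninjured and at 4.24, 11.9 and 12.2 FPKM in Control uninjured. The deleted cell type's share of Csf1 RNA is not measured in whole cord, and no library labelled AstroCSF1KO lacked the transcript, so every direction between genotypes below rests on the labels. Because the whole tissue was sequenced, a lower level can come from fewer cells of a type or from less RNA per cell, and these cannot be told apart.

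A gene was tested where it reached 1 FPKM in at least 3 of the 14 libraries, which kept 15155 genes and 34 of the 42 members. Oasl1, Oas1g, Oas2, Oas3, Mx1, Zbp1, Ddx60 and Ifi44 were too low. Of the 34, 17 reached 1 FPKM in fewer than 3 uninjured libraries (12 of them in none) and were kept only through injured ones, so a difference on injury was built into their selection. They were Usp18, Herc6, Oasl2, Oas1a, Mx2, Rsad2, Ifi204, Ifi207, Ifi211, Isg20, Parp9, Parp14, Slfn2, Slfn8, Slfn9, Sp100 and Trim30a. The other 17 would have been kept by the uninjured libraries alone, 15 of them reaching 1 FPKM in all 14 libraries. All changes below are differences of log2(FPKM + 1) between group means, which understate the change of low genes, tested with limma and adjusted by Benjamini-Hochberg over all 15155 genes.

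In AstroCSF1KO cords, nearly the whole list was higher after injury. Of the 34 tested members 33 rose, against a background of 19.7% of all tested genes, and 1 fell, against a background of 26.1%. Of the 17 that the uninjured libraries alone would have kept, 16 rose and 1 fell. The median change of the members was 0.86, against −0.03 over all genes. Over all 42 members, 40 had every injured AstroCSF1KO library above every uninjured one, 33 of them among the 34 tested, as did 22.3% of all tested genes. The single member that fell was Cmpk2, which was lower in every injured library, as were 28.4% of all tested genes, and the groups of Oas1g overlapped. With the replicate numbers as a block 29 members rose and 1 fell, against backgrounds of 16.2% and 20.9%. In 1 fit over all 14 libraries, which shares the spread of the control libraries, 17 rose and none fell, against backgrounds of 5.52% and 2.01%.

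The membrane proteins that hold back virus particles were abundant after injury and had large changes. Bst2 encodes tetherin, which ties budding virions to the cell surface. It was at 28.2, 25.8, 20.7 and 21.4 FPKM in AstroCSF1KO SCI and at 5.98, 6.10 and 3.93 FPKM in AstroCSF1KO uninjured, a rise of 1.99 ± 0.16 (SE; limma adjusted p = 5.17e-05). Every injured library was more than 3 times as high as the highest uninjured one. Ifitm3, which blocks viral fusion in endosomes, was the most abundant member after injury in AstroCSF1KO cords. It was at 84.5, 70.8, 68.1 and 74.5 FPKM in AstroCSF1KO SCI and at 20.03, 25.7 and 23.3 FPKM in AstroCSF1KO uninjured. It rose by 1.65 ± 0.10 (limma adjusted p = 1.99e-05), and again the groups were far apart.

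The PYHIN genes, a mouse family of nuclear and cytoplasmic DNA sensors and their relatives, were close to silent without injury. Ifi207 was at 2.96, 3.24, 2.13 and 1.21 FPKM in AstroCSF1KO SCI and at 0.0427, 0.0570 and 0.0301 FPKM in AstroCSF1KO uninjured, where 2 to 4 reads stood behind each value. It rose by 1.65 ± 0.21 (limma adjusted p = 0.000544), and no value of one group came near the other. Its neighbour Ifi204 was at 2.52, 2.61, 1.805 and 1.56 FPKM in AstroCSF1KO SCI and at 0.0684, 0.137 and 0.260 FPKM in AstroCSF1KO uninjured, a rise of 1.42 ± 0.15, and Ifi211 rose by 0.66. Slfn2, a Schlafen gene of immune cell quiescence, was at 6.20, 3.79, 4.64 and 4.15 FPKM in AstroCSF1KO SCI and at 0.907, 1.52 and 0.927 FPKM in AstroCSF1KO uninjured, a rise of 1.42 ± 0.16. The other Schlafen genes, Slfn5, Slfn8 and Slfn9, rose by 0.68 to 0.95.

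The classical antiviral effectors rose as well. The 4 IFIT genes, which encode related antiviral proteins, rose by 0.56 (Ifit2) to 1.16 (Ifit3), and Ifit1 and Ifit3b lay between them. Ifit1 averaged 4.40 ± 1.10 FPKM in AstroCSF1KO SCI (SD, n = 4) and 1.48 ± 0.29 FPKM in AstroCSF1KO uninjured (SD, n = 3). Isg15 encodes a ubiquitin-like modifier. It was at 11.2, 5.46, 6.82 and 6.22 FPKM in AstroCSF1KO SCI and at 2.22, 4.30 and 3.59 FPKM in AstroCSF1KO uninjured, a rise of 0.93 ± 0.24 (limma adjusted p = 0.0142), with AstroCSF1KO SCI 1 well above its 3 companions. Usp18, the protease that removes ISG15, was at 1.93, 1.96, 1.58 and 1.49 FPKM in AstroCSF1KO SCI and at 0.489, 0.996 and 0.461 FPKM in AstroCSF1KO uninjured, a rise of 0.74 ± 0.14. All injured libraries stood above the highest uninjured one. Herc6, the mouse ISG15 ligase, was at 0.800 to 0.911 FPKM in AstroCSF1KO SCI and at 0.325 to 0.404 FPKM in AstroCSF1KO uninjured, a rise of 0.44 ± 0.10 and one of the 3 smallest among those called. Trim25, a ubiquitin ligase of RNA sensing, rose by 0.90.

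Oasl2 and Oas1a, from the family of oligoadenylate synthetases that switch on RNase L and their relatives, rose by 0.96 and 0.89. Rsad2 encodes viperin, a radical enzyme that makes a chain-terminating nucleotide, and it rose by 0.63 ± 0.14, while Mx2, a dynamin-like GTPase, rose by 0.50. Eif2ak2 encodes PKR, the kinase that halts translation on double-stranded RNA, and it rose by 0.72. Isg20, an exonuclease, rose by 0.74, and Parp9, Parp14 and Dtx3l, which carry out ADP-ribosylation and its linked ubiquitination, rose by 0.62 to 0.88. Trim30a, a mouse regulator of innate signalling, rose by 1.18 and Sp100, a nuclear body protein, by 0.47. Ifi27l2a, a small membrane-associated protein, was at 14.1, 6.48, 5.72 and 10.8 FPKM in AstroCSF1KO SCI and at 1.998, 3.05 and 1.56 FPKM in AstroCSF1KO uninjured, and it rose by 1.63 ± 0.29 although the injured libraries were spread widely. Ifi35, an interferon-induced leucine zipper protein, rose by 0.91, Rtp4, a receptor chaperone that also dampens interferon responses, by 0.49, and Xaf1, a pro-apoptotic factor, by 0.42 ± 0.08. Xaf1 was at 2.04, 2.11, 2.26 and 2.36 FPKM in AstroCSF1KO SCI and at 1.28, 1.35 and 1.52 FPKM in AstroCSF1KO uninjured, a small change between tight groups. Ifi27 was already high without injury, at 42.7, 31.9, 40.9 and 36.6 FPKM in AstroCSF1KO SCI and at 23.2, 29.04 and 31.03 FPKM in AstroCSF1KO uninjured, and rose by 0.44 ± 0.13.

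Cmpk2, a mitochondrial nucleotide kinase encoded next to Rsad2, moved the other way. It was at 7.94, 7.84, 6.80 and 7.70 FPKM in AstroCSF1KO SCI and at 11.2, 11.7 and 9.71 FPKM in AstroCSF1KO uninjured, and it fell by 0.47 ± 0.08 (limma adjusted p = 0.00218). All injured libraries were below all uninjured ones. Its upstream 250 bases, shown because it was the only member to fall, held no core letters on either strand (RefSeq GRCm38.p6, chr12:26468965-26469214, plus strand).
Cmpk2: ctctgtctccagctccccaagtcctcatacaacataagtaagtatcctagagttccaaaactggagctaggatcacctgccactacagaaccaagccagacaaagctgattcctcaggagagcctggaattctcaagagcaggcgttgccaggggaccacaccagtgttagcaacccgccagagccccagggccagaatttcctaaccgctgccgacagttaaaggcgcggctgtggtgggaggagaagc
Among the tested members with a promoter, the 15 with the core had a median change of 0.95 in AstroCSF1KO cords and the 11 without it, Cmpk2 among them, a median of 0.62. In control cords the medians were 1.24 and 0.60. The absence of the letters says only that they are not in this window.

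The 8 members below the filter were tested in a fit without any filter, where the backgrounds of genes called higher and lower were 7.65% and 9.12%. Mx1, the nuclear Mx protein gene, was at 0.649, 0.320, 0.652 and 0.560 FPKM in AstroCSF1KO SCI and at 0.116, 0.101 and 0.122 FPKM in AstroCSF1KO uninjured, a rise of 0.47. Zbp1, a sensor of Z-form nucleic acid, rose by 0.58, Ddx60, a helicase that assists RNA sensing, by 0.35 and Ifi44 by 0.40. Oas1g, Oas2, Oas3 and Oasl1 did not pass, with changes of 0.15, 0.32, 0.09 and 0.32. Oas3 rested on 5 to 22 reads in AstroCSF1KO SCI and on 2 reads in each AstroCSF1KO uninjured library. In the same fit Ifi27 (limma adjusted p = 0.0920), Isg15 (0.0779) and Sp100 (0.0938) lost their calls.

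**Figure D1:**
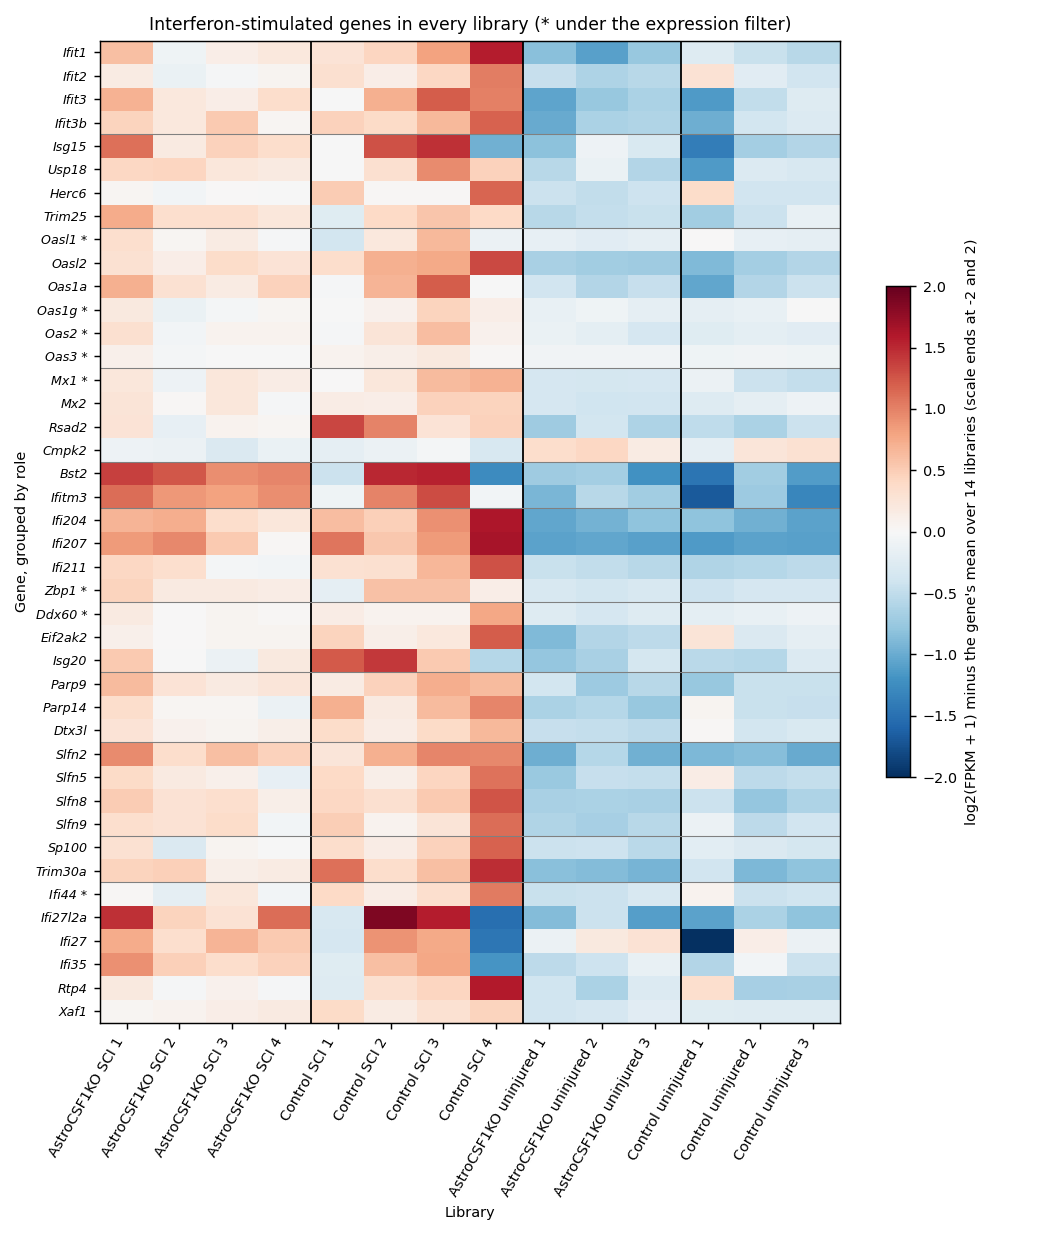
Level of each of the 42 members (rows) in each of the 14 libraries (columns, grouped), as log2(FPKM + 1) minus the gene's mean over all libraries; the colour scale ends at −2 and 2. Injured libraries are high for nearly every row but Cmpk2, and Control SCI 1 and Control SCI 4 are low for Bst2, Ifi27 and Ifi27l2a, while Control SCI 4 is the highest injured control for 21 rows.

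In control cords 33 of the 34 tested members were higher in SCI and Cmpk2 was lower, but few passed the test. In all 3 members rose, against a background of 1.03%, and none fell, against a background of 0.0132%. The 3 were Ifi207 (2.12 ± 0.28, limma adjusted p = 0.0203), Slfn2 (1.64 ± 0.24, adjusted p = 0.0262) and Ifi204 (1.85 ± 0.30, adjusted p = 0.0399). All 3 were kept only through injured libraries, where they are high, and of the 17 members that the uninjured libraries alone would have kept none passed, so the 3 calls are no support for the list beside that background. Ifi207 was at 3.58, 2.18, 2.93 and 5.88 FPKM in Control SCI and at 0, 0.0425 and 0.0287 FPKM in Control uninjured. Slfn2 was at 3.41, 5.13, 6.39 and 6.25 FPKM in Control SCI and at 0.998, 1.08 and 0.855 FPKM in Control uninjured. Ifi204 was at 2.37, 2.05, 3.11 and 5.70 FPKM in Control SCI and at 0.256, 0.123 and 0.0414 FPKM in Control uninjured. For these 3 genes the groups were far apart with any control library included. The median change was 1.08, against −0.05 over all genes. Of the 34, 24 had an unadjusted p under 0.05, a share not computed over all genes. With the replicate numbers as a block 16 members rose and none fell, against backgrounds of 5.32% and 1.47%. Control SCI 4 has no uninjured partner of its number, so it adds nothing to the changes in that fit. The labels do not say what a number marks, and Control SCI 1 and Control uninjured 1 both stood apart. The deviations of number 3 correlated more with another number (0.812) than with their own (0.733). In 1 fit over all 14 libraries 20 members rose and none fell, against backgrounds of 5.21% and 1.87%. Leaving out 1 control library gave 2 calls without Control SCI 4, 1 without Control SCI 1 and 1 without Control SCI 2. Without Control SCI 3 or any uninjured one there were 0. Over all 15155 genes, leaving out Control SCI 4, 1, 2 and 3 gave 125, 96, 60 and 60 higher calls. Leaving out Control uninjured 1, 2 and 3 gave 61, 15 and 17. With no filter none passed in either direction, against backgrounds of 0.166% and 0.00831%. In that fit 28 of the 42 had an unadjusted p under 0.05, a share not computed over all genes. Every library of Control SCI was above every library of Control uninjured for 27 of the 42 members, 21 of them among the 34 tested, against 7.79% of all tested genes, and no member had the reverse, against 4.76%.

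The spread among the control libraries was wide, and the libraries that stood apart lay on different sides for different genes. Bst2 was at 7.46, 31.3, 32.2 and 3.75 FPKM in Control SCI and at 3.13, 6.02 and 4.24 FPKM in Control uninjured. Ifi27l2a was at 3.40, 18.9, 15.2 and 0.930 FPKM in Control SCI and at 1.61, 2.51 and 2.12 FPKM in Control uninjured. For both genes Control SCI 2 and 3 were high, and Control SCI 4 was within or below the uninjured range. Ifit1, in contrast, was at 4.50, 5.16, 7.02 and 12.6 FPKM in Control SCI and at 2.81, 2.37 and 2.11 FPKM in Control uninjured, with Control SCI 4 highest. Mx1 was at 0.417, 0.650, 1.18 and 1.28 FPKM in Control SCI and at 0.295, 0.0432 and 0.0146 FPKM in Control uninjured, and it too was higher in every injured library. Usp18 was at 1.19, 1.74, 3.23 and 2.03 FPKM in Control SCI and at 0, 0.817 and 0.757 FPKM in Control uninjured, again without overlap.

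Without Control SCI 1 and Control SCI 4, 4 members rose, against a background of 0.825%. They were Ifi27l2a (2.56, limma adjusted p = 0.0374), Ifi207 (1.79, adjusted p = 0.0389), Bst2 (2.62, adjusted p = 0.0465) and Slfn2 (1.77, adjusted p = 0.0465), so Ifi204 lost its call (adjusted p = 0.0552). Groups did not overlap, with SCI higher, for 36 of 42 members, 28 of them among the 34 tested, against 22.7% of all tested genes, and for none was SCI wholly lower, against 19.6%. Without Control uninjured 1 as well, 31 members rose and Cmpk2 fell by 0.35, against backgrounds of 12.2% and 11.7%, and Herc6 and Mx2 did not pass. In that fit of 2 injured and 2 uninjured control libraries the median change was 1.03, and Bst2 rose by 2.43, Ifi27l2a by 2.44 and Isg15 by 1.999. The 2 injured libraries left had Ddx3y reads from the Y chromosome and almost no Xist, the 2 uninjured ones the reverse, so sex and injury cannot be told apart there.

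The order of the members by size of change was alike in both genotypes. Across the 34 members the changes in AstroCSF1KO and control cords, which share no library, had a Pearson correlation of 0.819 and a Spearman correlation of 0.792. The points share library depth within each genotype, and genes are not independent replicates. Of the 34 members, 17 were kept only through injured libraries, and the scale understates the change of low genes in both genotypes. The same correlation was not computed over all tested genes. With its sign, the change was higher in control cords for 26 members. It was higher in AstroCSF1KO cords for 8, against 53.1% of all tested genes. Cmpk2 is among the 26 because it fell less in control cords (−0.28) than in AstroCSF1KO cords (−0.47). Tested directly as a genotype-by-injury interaction over all 14 libraries, no member passed in either direction, against a background of 0%. The count was 0 of 34 by limma and 0 by limma voom on recovered reads. In both fits 0 members had an unadjusted p under 0.05. The median interaction was −0.18, against 0.02 over all genes. Without Control SCI 1 and 4 there were still 0 calls, against a background of 0%. In that fit 5 members had an unadjusted p under 0.05, a share not computed over all genes.

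**Figure D2:**
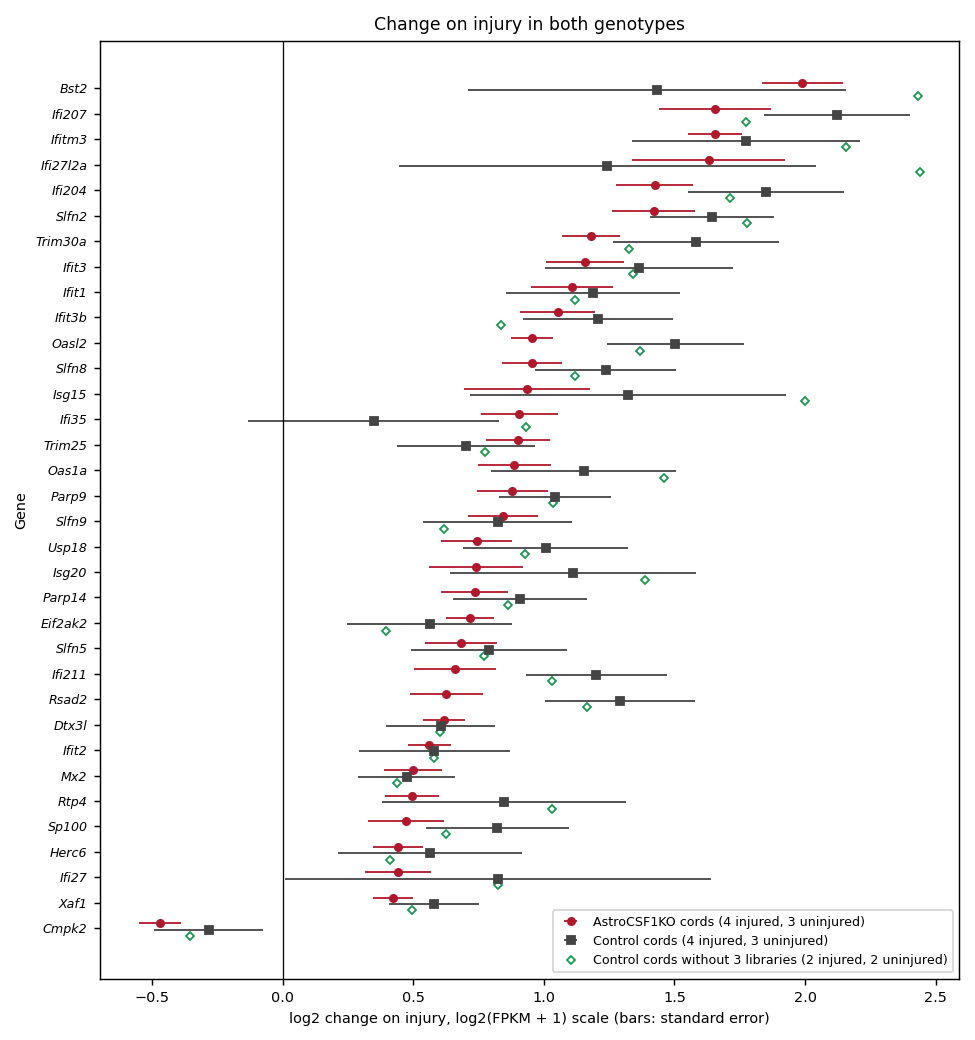
Change on injury (difference of mean log2(FPKM + 1), SCI minus uninjured, x axis) for the 34 tested members, with circles for AstroCSF1KO cords, squares for control cords (bars, SE) and diamonds for control cords without the 3 libraries that stood apart. All but Cmpk2 lie to the right of 0, and the control bars are the longer ones, reaching an SE of 0.82 for Ifi27.

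Between injured genotypes, no member passed the test. The count was 0 of 34 in either direction by limma and 0 by limma voom on recovered reads, against a background of 0%. At an unadjusted p under 0.05 there were 4 and 3 members, a share not computed over all genes. The level in AstroCSF1KO SCI was lower than in Control SCI for 27 of the 34 members, with a median difference of −0.34, against 0.05 over all genes. Rsad2 was at 1.56, 0.872, 1.22 and 1.16 FPKM in AstroCSF1KO SCI and at 4.32, 3.18, 1.56 and 1.90 FPKM in Control SCI, a difference of −0.71 ± 0.24 (limma adjusted p = 0.477, unadjusted p = 0.0176). Control SCI 3 and AstroCSF1KO SCI 1 were almost level, and the rest were apart. Oasl2 was at 2.93, 2.47, 3.08 and 2.81 FPKM in AstroCSF1KO SCI and at 3.05, 4.20, 4.34 and 6.91 FPKM in Control SCI, a difference of −0.52 ± 0.20. Here only Control SCI 1 fell within the AstroCSF1KO range.

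Parp14 and Trim30a were the other 2 members at an unadjusted p under 0.05, with differences of −0.54 ± 0.19 and −0.58 ± 0.25. Parp14 was at 1.94, 1.37, 1.36 and 1.12 FPKM in AstroCSF1KO SCI and at 2.78, 1.61, 2.55 and 3.504 FPKM in Control SCI. Trim30a was at 3.25, 3.37, 2.40 and 2.51 FPKM in AstroCSF1KO SCI and at 5.73, 2.99, 3.72 and 7.75 FPKM in Control SCI. In both genes the groups overlapped through Control SCI 2, and the highest values were those of Control SCI 1 and 4. Ifit2 came next, at 6.10, 4.80, 5.27 and 5.58 FPKM in AstroCSF1KO SCI and 6.97, 5.96, 7.42 and 11.9 FPKM in Control SCI, a difference of −0.46 ± 0.20. Sp100 was at 1.69, 0.762, 1.253 and 1.16 FPKM in AstroCSF1KO SCI and at 1.77, 1.39, 1.99 and 3.91 FPKM in Control SCI, a difference of −0.52 ± 0.24. All of these had a limma adjusted p of 0.477, and Control SCI 4 was the highest library for Trim30a, Parp14, Ifit2 and Sp100. For 2 of the 42 members, Rsad2 and Eif2ak2 (both tested), AstroCSF1KO SCI stood wholly lower, against 1.01% of all tested genes. No member stood wholly higher, against 2.14%. Eif2ak2 was at 3.90, 3.61, 3.73 and 3.75 FPKM in AstroCSF1KO SCI and at 5.20, 3.96, 4.28 and 9.63 FPKM in Control SCI. The 4 libraries labelled AstroCSF1KO were close together and 2 of the controls just above them, and the difference was −0.44 ± 0.24. The 7 members that were higher in AstroCSF1KO SCI were Bst2 (0.79), Ifi27 (0.60), Ifi35 (0.56), Ifi27l2a (0.43), Ifitm3 (0.39), Trim25 (0.13) and Isg15 (0.08).

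Those 7 turned with the choice of control libraries. Ifitm3 was at 84.5, 70.8, 68.1 and 74.5 FPKM in AstroCSF1KO SCI and at 36.0, 77.4, 96.6 and 37.0 FPKM in Control SCI. Ifi27 was at 42.7, 31.9, 40.9 and 36.6 FPKM in AstroCSF1KO SCI and at 19.8, 47.8, 43.2 and 8.64 FPKM in Control SCI. For both genes Control SCI 1 and 4 were below every AstroCSF1KO SCI library and Control SCI 2 and 3 at or above most of them. Without Control SCI 1 and Control SCI 4, 33 of the 34 members were lower in AstroCSF1KO SCI and Slfn9 was higher by 0.08, with a median of −0.26, against −0.00 over all genes. Still no member passed (0 of 34 by limma and 0 by limma voom, against a background of 0%), and the lowest limma adjusted p among the members was 0.714. In each fit 9 members had an unadjusted p under 0.05, a share not computed over all genes. Isg15 was at 11.2, 5.46, 6.82 and 6.22 FPKM in AstroCSF1KO SCI and at 12.8 and 14.6 FPKM in Control SCI 2 and 3, a difference of −0.84 ± 0.24, where the difference with all controls was 0.08 ± 0.52. Control SCI 1 was at 4.63 FPKM, on 58 reads, and Control SCI 4 at 1.93 FPKM, on 22 reads. Bst2 stood at −0.40 ± 0.13 without them, and Ifi27l2a at −0.89 ± 0.33.

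In that comparison 12 of the 42 members had every AstroCSF1KO SCI library below both remaining controls. Of these 12, 10 were among the 34 tested, against 8.01% of all tested genes. The 12 were Ifit3, Isg15, Oasl2, Oas3, Rsad2, Bst2, Zbp1, Eif2ak2, Isg20, Ifi27l2a, Ifi27 and Rtp4. No member had the reverse, against 8.10% of all tested genes. The difference was −0.47 ± 0.09 for Oasl2 (limma adjusted p = 0.714). Ifit3 was at 19.6, 13.9, 12.95 and 15.2 FPKM in AstroCSF1KO SCI and at 19.98 and 28.7 FPKM in Control SCI 2 and 3, a difference of −0.62 ± 0.19. The gap between AstroCSF1KO SCI 1 and Control SCI 2 was small beside the gap between the 2 controls. Isg20 was at 1.84, 0.967, 0.818 and 1.28 FPKM in AstroCSF1KO SCI and at 3.65, 4.27, 1.84 and 0.331 FPKM in Control SCI, with a difference of −0.50 ± 0.41 with all controls and −0.82 ± 0.28 without the pair. AstroCSF1KO SCI 1 and Control SCI 3 were almost level. Rtp4 was at 3.59, 2.93, 3.25 and 2.94 FPKM in AstroCSF1KO SCI and at 2.37, 3.99, 4.41 and 11.001 FPKM in Control SCI, with a difference of −0.46 ± 0.34 and −0.32 ± 0.09. Control SCI 4 was thus the lowest injured library for Isg20 and the highest for Rtp4.

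The AstroCSF1KO SCI libraries were not alike in this. Set against Control SCI 2 and 3, AstroCSF1KO SCI 2, 3 and 4 were below both for 35, 36 and 41 of the 42 members, while AstroCSF1KO SCI 1 was below both for 15, between them for 21 and above both for 6. Over all tested genes the share below both was 38.8%, 39.3% and 37.2% for libraries 2, 3 and 4 and 30.6% for library 1. The share above both was 39.5%, 35.2% and 34.4% for libraries 2, 3 and 4 and 32.6% for library 1. AstroCSF1KO SCI 1 was the highest of its group for 32 of the 42 members, against 33.1% of all tested genes. It was also the only library of the group without the high ribosomal RNA share, and the part of that share in the result was not tested. With the 7 libraries that had neither a high ribosomal share nor stood apart, which leave 1 AstroCSF1KO SCI library against 2 Control SCI libraries, 24 members were lower and 10 higher, with a median of −0.04 and 0 calls. That lone library was assumed to vary like the other groups. Both remaining Control SCI libraries and AstroCSF1KO SCI 1 and 2 carried Ddx3y, and AstroCSF1KO SCI 3 and 4 carried Xist, so the labelled genotypes also differ in sex makeup; its part was not tested.

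**Figure D3:**
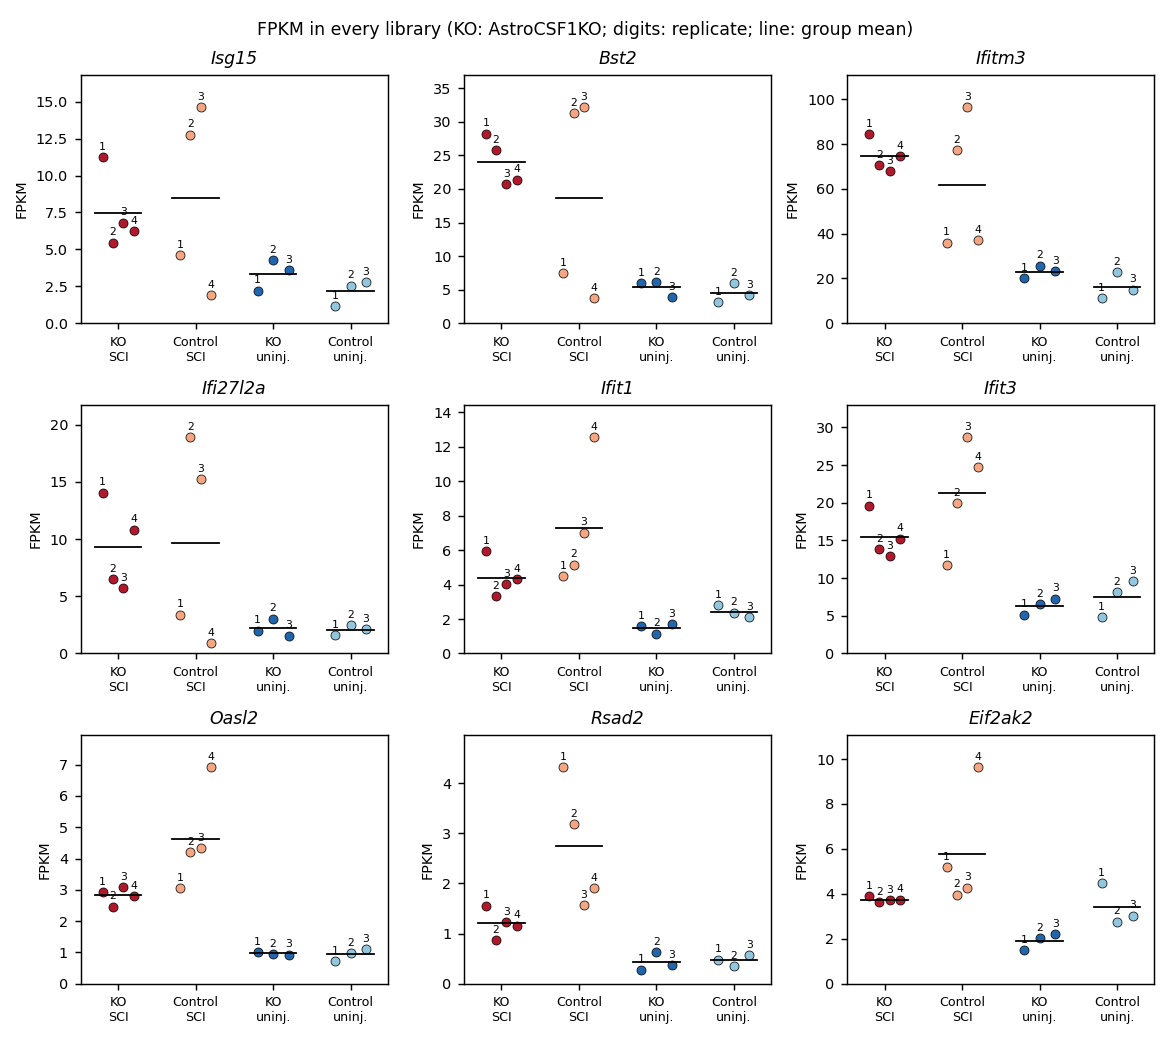
FPKM of 9 members in every library (points), by group, with the replicate number beside each point and a line at the group mean. Bst2 and Isg15 in Control SCI split into a high and a low pair, and Rsad2 and Oasl2 are lower in AstroCSF1KO SCI than in most Control SCI libraries.

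The side on which Control SCI 1 and 4 lay went with gene length. Their mean minus that of Control SCI 2 and 3 had a median of −2.11 over the 4 members under 1000 bases (Isg15, Bst2, Ifitm3 and Ifi27l2a), −0.40 over the 11 from 1000 to under 3000 bases and 0.41 over the 19 of at least 3000 bases. Over all tested genes the medians in these classes were −0.22, −0.48 and 0.03. Across the 34 members the Spearman correlation of this difference with length was 0.687, against 0.225 across all 15155 genes, where all points share the same 4 libraries. AstroCSF1KO SCI minus all 4 Control SCI libraries had a median of 0.41 in the short class, −0.36 in the middle class and −0.41 in the long class. Set against Control SCI 2 and 3 alone, the medians were −0.62, −0.32 and −0.15. The short members that were higher in AstroCSF1KO SCI with all controls were thus the lowest of the 3 classes without the pair.

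**Figure D4:**
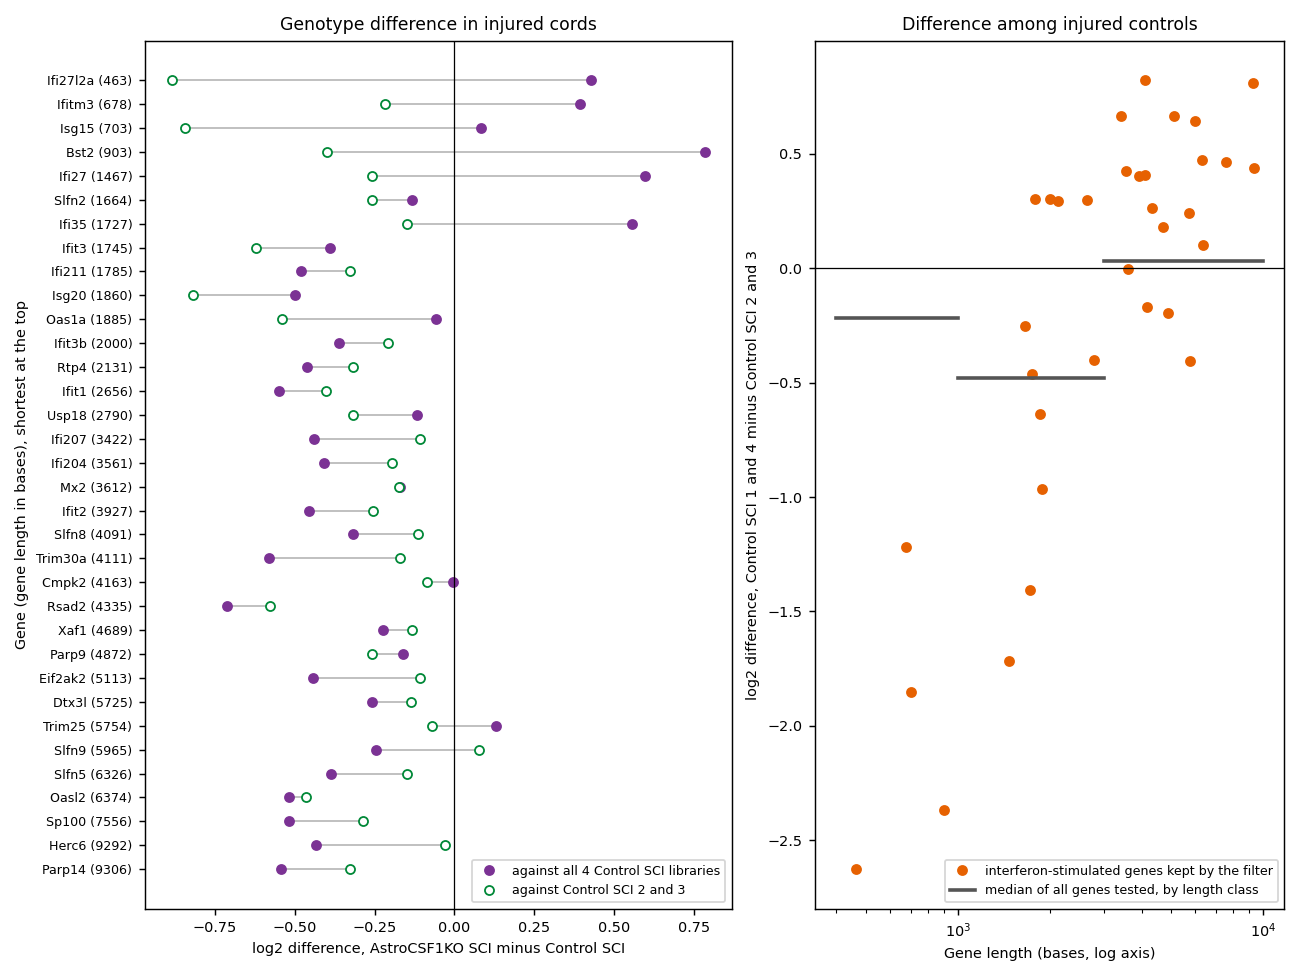
Left, the genotype difference of each tested member in injured cords (AstroCSF1KO SCI minus Control SCI, log2(FPKM + 1)) with all controls and without Control SCI 1 and 4, with members ordered by length; right, the difference between Control SCI 1 and 4 and Control SCI 2 and 3 against gene length in bases (log axis). Short members move from above 0 to below 0 on the left, and the right panel climbs from −2.63 for Ifi27l2a to above 0 for most members over 3000 bases.

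In uninjured cords no member passed the test between genotypes (0 of 34 by limma and 0 by limma voom, against a background of 0%). Each fit had 2 members at an unadjusted p under 0.05, a share not computed over all genes. The median difference was −0.06, against 0.04 over all genes, and 20 of the 34 members were lower in AstroCSF1KO uninjured. For 10 of the 42 members every AstroCSF1KO uninjured library was below every Control uninjured one. Of these 10, 9 were among the 34 tested, against 11.1% of all tested genes. For no member was the reverse true, against 12.2%. Among the 10, Ifit1 was at 1.58, 1.16 and 1.70 FPKM in AstroCSF1KO uninjured and at 2.81, 2.37 and 2.11 FPKM in Control uninjured. Its difference was −0.47 ± 0.17 (limma adjusted p = 0.603). Ifit2, Herc6, Mx2, Ddx60, Eif2ak2, Parp14, Dtx3l, Slfn9 and Sp100 were the others. Usp18 and Oas1a were listed at 0 in Control uninjured 1 and had reads in all other libraries.

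Upstream of these genes, transcripts of the interferons looked for were at or near 0. Ifnb1, Ifna1, Ifna4, Ifna5, Ifne and Ifng were at 0 reads in all 14 libraries, which at this depth allows up to 3 reads per library. Ifna2 had 1 read, in AstroCSF1KO SCI 2. Ifnk, which encodes IFN-κ, a type I interferon known from skin, had 0, 5, 3 and 2 reads in AstroCSF1KO SCI and 5, 0, 0 and 7 reads in Control SCI. It had 0, 1 and 1 reads in AstroCSF1KO uninjured and 0 in each Control uninjured library, so reads were present in injured and uninjured cords and no group had them in every library. Of 24 genes of the signalling chain 15 were tested, and in AstroCSF1KO cords 12 rose, against 19.7% of all tested genes, and none fell, against 26.1%. They included the receptor genes Ifnar1 (0.44) and Ifnar2 (0.71), the transcription factor genes Stat2 (0.33) and Irf9 (0.79), the amplifying factor gene Irf7 (0.83), Irf8 (2.004), a factor of macrophages, and Socs3 (1.89), a feedback inhibitor. In control cords 1 rose, the interferon-γ receptor gene Ifngr1 (1.24), against 1.03% of all tested genes. Between injured genotypes none passed, with a median of 0.01, and of −0.09 without Control SCI 1 and 4. Of 46 further interferon-induced genes, 38 were tested. In AstroCSF1KO cords 33 of them rose, against 19.7% of all tested genes, and 2 fell, against 26.1%, and in control cords 1 rose, against 1.03%. Between injured genotypes none passed, 23 of 38 were higher in AstroCSF1KO SCI with all controls, and 2 of 38 without Control SCI 1 and 4, with medians of 0.08 and −0.14.

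Cell type markers moved with injury as well. The summed level of 13 microglia and macrophage markers was 1507 to 2061 FPKM in AstroCSF1KO SCI, 857 to 1609 in Control SCI, 160 to 199 in AstroCSF1KO uninjured and 115 to 184 in Control uninjured. All 13 rose in AstroCSF1KO cords, against 19.7% of all tested genes, and 6 of the 13 in control cords, against 1.03%. The abundant genes C1qa, C1qb, C1qc and Ctss carry most of each sum, and single markers differ from it. Control SCI 1 and 4 had the low sums of their group, at 857 and 865 FPKM, against 1527 and 1609 in Control SCI 2 and 3. Both were below Control SCI 2 and 3 for 8 markers (Csf1r, Cx3cr1, Tmem119, Cd68, Adgre1, C1qa, C1qb and C1qc) and above them for 3 (Itgam, P2ry12 and Ptprc), while Aif1 and Ctss were mixed. P2ry12, a purine receptor gene of microglia, was at 28.2, 14.9, 14.6 and 56.5 FPKM in Control SCI. In AstroCSF1KO SCI the sum was 2061 in library 1 and 1837, 1507 and 1576 in libraries 2, 3 and 4. AstroCSF1KO SCI 1 was the highest of its group for 6 of the 13 (Tmem119, Cd68, Adgre1, C1qa, C1qb and C1qc), lowest for Csf1r and P2ry12 and between the others for 5, and the part of cell numbers in the members' changes was not tested.

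Of 3 markers listed for plasmacytoid dendritic cells, a cell type known for interferon secretion, only Siglech, which microglia also express, was above a trace. It was at 4.79 to 6.24 FPKM in AstroCSF1KO SCI and 5.36 to 7.21 FPKM in Control SCI, against 2.60 to 3.17 and 2.55 to 3.07 FPKM in the uninjured groups. Ccr9 reached at most 0.180 FPKM and Klk1 at most 0.0501 FPKM, so no level of that cell type can be read from these values. Of blood cells, 3 monocyte markers (Ly6c2, Ccr2 and Plac8) summed to 0.938 to 2.65 FPKM in AstroCSF1KO SCI and 1.55 to 2.71 FPKM in Control SCI, against 0.101 to 0.420 and 0.165 to 0.350 FPKM in the uninjured groups, so injured and uninjured libraries did not overlap. The 4 neutrophil markers summed to 17.7 to 40.2 FPKM in AstroCSF1KO SCI and 8.88 to 20.02 FPKM in Control SCI, against 7.63 to 14.8 and 4.95 to 18.1 FPKM in the uninjured groups, and for the controls these ranges overlapped. The 5 T cell markers summed to at most 0.550 FPKM and 3 B cell markers to at most 0.463 FPKM in any library, with no marker at 0 in every library. The part of blood cells in the members' changes was not tested. The summed level of 4 endothelial markers was 58.3 to 87.8 FPKM in AstroCSF1KO SCI and 26.9 to 88.6 FPKM in Control SCI, against 45.6 to 75.1 and 23.9 to 48.7 FPKM in the uninjured groups. Control SCI 1 and 4 had low sums through Cldn5, at 15.0, 68.5, 64.7 and 5.43 FPKM in Control SCI, and Cdh5 was also below both others there. Pecam1 was at 5.94, 5.09, 5.95 and 7.80 FPKM and Flt1 at 6.83, 6.03, 7.01 and 7.12 FPKM in Control SCI, where the pair was not low. That of 5 astrocyte markers was 1940 to 2559 FPKM in AstroCSF1KO SCI and 1471 to 2088 FPKM in Control SCI, against 550 to 699 and 497 to 729 FPKM in the uninjured groups. Single markers differ from this sum. In AstroCSF1KO cords 3 of the 5 rose, against 19.7% of all tested genes, with a median change of 0.43. In control cords 0 rose, against 1.03%, with a median of 0.29. Control SCI 1 and 4 were below Control SCI 2 and 3 for Gfap and Aldh1l1 and above them for Aqp4, Slc1a3 and Gja1. AstroCSF1KO SCI 1 was the lowest of its group for 4 of the 5 and the highest for Aldh1l1. The tissue label held, with 4 oligodendrocyte markers at 3427 to 4381 FPKM in all libraries, and 4 neuron markers at 523 to 567 in AstroCSF1KO SCI and 480 to 574 in Control SCI, against 759 to 858 and 721 to 876 in the uninjured groups.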

How the data were processed

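Poly(A)-selected RNA from 14 spinal cord samples was sequenced as paired reads without strand information, per the labels' protocols. CASAVA 1.8, HISAT2 and the build mm39 are named in the submitters' processing notes. How reads were assigned to genes, and with which annotation, is not stated in what was used here. Values are FPKM per gene and library as computed by the authors, with gene length in bases as another deposited column. FPKM times length was a whole multiple of 1 read's worth for 100% of values (tolerance 0.01 reads), and the library sizes behind the authors' FPKM follow median-of-ratios size factors of these reads (ratio 1), not their totals.

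Genes reaching 1 FPKM in at least 3 of 14 libraries were tested with limma 3.58.1 (R 4.3.3) on log2(FPKM + 1), with an intensity trend and Benjamini-Hochberg adjustment at 0.05 over 15155 genes. Each comparison was fitted on its own groups, and the interaction on all 14 libraries. An alternative used limma voom with TMM scaling on the recovered reads. The fits for injury in AstroCSF1KO cords and for genotype in injured cords were also run on simulated reads. The simulation gave every gene and library the same spread, so it lacked the wide spread of the Control SCI libraries. No block was in the main fits. In the control injury comparison the deviations of same-numbered libraries had correlations of 0.616, 0.832 and 0.733. The highest with another number were −0.528, 0.708 and 0.812. Control SCI 1 and Control uninjured 1 were both among the libraries that stood apart, so these correlations cannot separate a shared number from that split. The labels do not say that a number marks a shared animal, litter or day, and the source of the correlations was not tested. Same-numbered libraries did not deviate together in every pair of the other comparisons (−0.342 to 0.206). The block value is given where it moved a count, without taking the numbers as true pairs.

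The members and lists were chosen with earlier results of these data known, so their counts are descriptions read against all genes. Genes described in full were taken by rule: the 6 lowest unadjusted p between injured genotypes with and without Control SCI 1 and 4, the calls in control cords, the 5 largest and 3 smallest calls in AstroCSF1KO cords, and 11 textbook members; the rest are given by their change. Promoters and their sequences come from RefSeq (GRCm38.p6) and shared stretches from GENCODE transcripts.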

Additional observations from a re-analysis of the deposited data

Results flagged for a closer look

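Within the injured groups of 4, 4 of 84 gene-by-group sets held a library whose gap to the nearest of the others, as a share of the group's range, exceeded Dixon's critical value for outlying values; chance flags about 1 in 20 groups. Zbp1 was at 0.809 FPKM in AstroCSF1KO SCI 1, with the next library at 0.511 (gap 0.8885 of the range). Parp9 was at 2.89 FPKM in the same library, with the next at 2.02 (gap 0.8291). Ddx60 was at 1.23 FPKM in Control SCI 4, with the next library at 0.453 (gap 0.9063). Slfn8 was at 3.55 FPKM in Control SCI 4, with the next at 1.74 (gap 0.8372). Control SCI 4 is among the libraries that stood apart, and AstroCSF1KO SCI 1 is the library highest in its group for most members.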

How the results depend on the processing

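On injury in AstroCSF1KO cords there were 33 higher calls and 1 lower call. With a filter of 5 FPKM there were 10 and 1 among 11 tested members, against 1795 and 3282 among all 8983 genes. All 14 libraries in one fit, which shares the wider spread of the control libraries, gave 17 higher and 0 lower. The backgrounds there were 5.52% and 2.01%. Leaving out 1 library in turn gave 30 to 33 higher calls and 1 lower call among the members. Over all 15155 genes it gave 2401 to 2950 higher and 3034 to 3913 lower calls. The 3 higher calls in control cords became 5 with a pseudocount of 0.1, 5 with TPM scaling and 1 with voom. Over all 15155 genes those fits gave 203, 210 and 97 higher calls, against 156 in the main fit. With no filter on low values there were 0, against 60 of 36121 genes, and with a filter of 5 FPKM 0, against 94 of 8983. All 14 libraries in one fit gave 20, against 5.21% of all tested genes. With the replicate block, where Control SCI 4 has no partner, the 3 calls became 16, against 5.32%. Without 3 control libraries there were 31 higher calls and 1 lower, against 12.2% and 11.7%. In the 7 libraries the median change of the members in control cords was 1.03, against −0.01 over all genes. Leaving out 1 control library gave 0 to 2 member calls, against 15 to 125 higher calls over all 15155 genes. There were 0 without Control SCI 3 or any 1 of the uninjured controls, and the cause was not tested. The replicate block changed no other count by over 1.5 times. It gave 29 higher calls in AstroCSF1KO cords, against 16.2% of all tested genes, and AstroCSF1KO SCI 4 has no partner there either. Every genotype and interaction count was 0 under every alternative run, and under voom, no filter and 1 fit of all other libraries without Control SCI 1 and 4, chosen after seeing the data. TPM scaling set the median interaction of all genes at −0.09, against 0.02, and that of the members at −0.31. Depth limits Oas3, Oas1g and the uninjured PYHIN values, which rest on few reads.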
